A study of Homo sapiens with 2 samples.

Results

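Mitochondrially encoded transcripts were described here as they appear in the peak lists of an irCLIP experiment on SNRPA1. They comprise every interval that the longer of the 2 deposited lists, made with the peak caller CLIPper, placed on the mitochondrial chromosome. There were 48 such intervals among 7651 distinct ones, 0.627% of the list (95% Clopper-Pearson interval 0.463 to 0.831, counting error only). They were grouped by Ensembl gene identifier into ribosomal RNA, transfer RNA and protein-coding genes, and by strand. No interval was repeated on this chromosome.

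The data come from MDA-231-LM2, a subline of the breast cancer cell line MDA-MB-231 (human) with high metastatic activity in the lung, grown in culture with no treatment named in the labels. SNRPA1 and its RNA were recovered with an antibody to the endogenous protein in 2 biological replicates, which form the only group. The shorter list, which records how many tags high each peak is and is called the height list below, pools the replicates according to its name, and the CLIPper list does not tell them apart. Spread between replicates could therefore not be computed, no test across samples was possible, and the depth of either library is unknown. Intervals of 1 list are not replicates, so the values below are set side by side without a p-value of their own.

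SNRPA1 is a component of the U2 small nuclear ribonucleoprotein, a nuclear particle that binds the branch site of introns during splicing. Mitochondrial RNA is made from a circular genome inside the organelle as long polycistronic transcripts of both strands, which are cut at the tRNAs into rRNAs, tRNAs and intronless mRNAs. One strand encodes both rRNAs, most tRNAs and nearly all of the proteins, the other encodes the remaining tRNAs and MT-ND6. The rRNAs form the mitochondrial ribosome, and the mRNAs encode subunits of the respiratory chain and of ATP synthase. Because these RNAs stay within mitochondria, their reads are commonly taken as a gauge of background in crosslinking experiments on nuclear proteins. No control immunoprecipitate or input library was analysed here, so the level that such a library would reach on the same RNAs was not tested.

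The intervals covered 19 of the 37 mitochondrial genes. Both rRNA genes held intervals, as did 10 of 22 tRNA genes and 7 of 13 protein-coding genes. Protein-coding genes had 21 intervals (43.8%, 95% Clopper-Pearson interval 29.5 to 58.8), rRNA genes 15 (31.2%, 18.7 to 46.3) and tRNA genes 12 (25%, 13.6 to 39.6). By reads summed over intervals, 169 lay in protein-coding genes, 166 in rRNA genes and 129 in tRNA genes, of 464 in all. These sums can count a read more than once where neighbouring intervals share it. Abutting intervals with equal reads lay in protein-coding and tRNA genes only. Examples are 4 of MT-ND2 with 7 reads each and 2 of MT-TY with 24 each. Reads counted repeatedly may thus raise the sums of these classes above that of the rRNA genes, so the near-equal sums are not read as a result. Gene symbols follow the Ensembl identifiers. All 48 intervals lay on the strand known for the gene and in the known order of genes along the chromosome. The strand follows the gene assigned by the caller, so this agreement checks only the matching of symbols to identifiers. It says nothing about reads antisense to these genes.

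**Figure D1:**
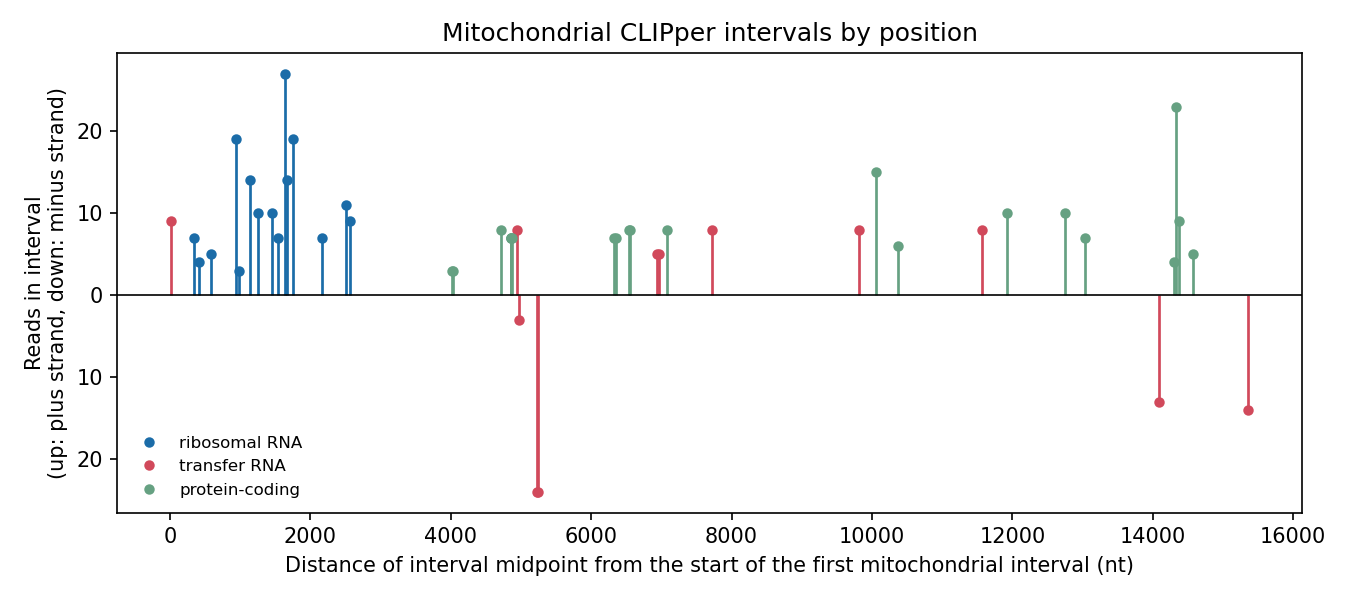
Reads in each of the 48 mitochondrial intervals (y axis, plus strand upwards, minus strand downwards) against the distance in nt of the interval's midpoint from the start of the first interval (x axis), with colour for gene class. Reads rise to 27 in the rRNA genes near the left end, and the 5 intervals on the minus strand belong to tRNA genes.

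An rRNA gene held the most intervals and also the interval with the most reads. MT-RNR2 (ENSG00000210082), the RNA of the large subunit of the mitochondrial ribosome, had 10 intervals between positions 1729 and 3187 of the mitochondrial chromosome (positions are 1-based hg19 as deposited; which mitochondrial reference sequence they follow is not stated). Their reads ran from 7 to 27 with a median of 10.5, and together they covered 319 nt. The highest value lay at 2224 to 2265, with 27 reads (95% Poisson interval 17.8 to 39.3, counting error only) and a deposited p of 7.39e-13. It touched a second interval at 2266 to 2298 with 14 reads, and the interval at 2350 to 2387 had 19 reads (11.4 to 29.7). The remaining 7 intervals of this gene had between 7 and 14 reads. Reads on this RNA thus lay in several separate places, with the highest values in the stretch from 2224 to 2387. Joined within 50 nt, the 10 intervals formed 8 regions.

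MT-RNR1 (ENSG00000211459), the RNA of the small ribosomal subunit, had 5 intervals between 933 and 1592. The one with the most reads lay at 1524 to 1571, with 19 reads (11.4 to 29.7), a width of 48 nt and a deposited p of 8.17e-11. The other 4 had 7, 4, 5 and 3 reads from left to right, those with 7 (2.81 to 14.4) and 5 (1.62 to 11.7) having Poisson intervals that overlap that of the highest, at deposited p between 0.00393 and 0.0416. The names number the intervals of a gene in order, and 1 number of MT-RNR1 and 1 of MT-ND2 were not listed. Counted over all entries of the CLIPper list, with an interval counted for each gene it is listed under, 9 of 4848 gene identifiers had more intervals than MT-RNR2 and 5 others had as many, while 63.2% had a single one. Of the 19 mitochondrial genes, 11 had a single interval and 3 had 5 or more, as did 3.53% of all identifiers. Gene lengths of the mitochondrial genes were not used here, so these numbers are not corrected for length.

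Among the tRNAs, the strand that encodes few genes gave the higher read numbers. MT-TY (ENSG00000210144), the tRNA for tyrosine, had 24 reads (15.4 to 35.7) in each of its intervals, at 5826 to 5844 and 5845 to 5859 on the minus strand. They abut, have equal reads and may hold the same molecules. MT-TP, the tRNA for proline, had 14 reads (7.65 to 23.5) at 15958 to 15989, and MT-TE, the tRNA for glutamic acid, had 13 (6.92 to 22.2) at 14686 to 14711. MT-TA, the tRNA for alanine, had 3 reads in an interval of 3 nt at 5588 to 5590. The plus-strand tRNAs were at 5 to 9 reads: MT-TF (phenylalanine) had 9, and MT-TW (tryptophan), MT-TK (lysine), MT-TR (arginine) and MT-TH (histidine) had 8 each. MT-TD (aspartic acid) had 5 in each of 2 abutting intervals. Apart from MT-TA, the minus-strand tRNAs lay above every plus-strand tRNA, although the Poisson interval of MT-TE overlaps that of MT-TF (4.12 to 17.1). The 12 tRNA genes without an interval were 8 of the plus strand and 4 of the minus strand.

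Of all 48 intervals, 43 lay on the plus strand (89.6%, 95% Clopper-Pearson interval 77.3 to 96.5), against 3953 of 7603 nuclear intervals (52.0%, 50.9 to 53.1). The percentage on single nuclear chromosomes ran from 47.6 to 67.5. Strand here is that of the gene the caller assigned, so the percentage follows which genes had intervals. The plus strand carries 28 of the 37 mitochondrial genes, among them both rRNA genes and 12 of the 13 protein-coding ones. Of those 28 genes 15 had an interval, as did 4 of the 9 genes on the minus strand. Gene length was not taken into account. By reads the plus-strand percentage was 83.2. Each of the 5 minus-strand intervals belonged to a tRNA gene, and MT-ND6, the only protein-coding gene of that strand, had none. The median reads were 14 in the 5 minus-strand intervals and 8 in the 43 on the plus strand. The 5 include both abutting intervals of MT-TY, with 24 reads each, and the 43 also hold intervals of rRNA and protein-coding genes.

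The protein-coding genes with intervals encode subunits of complexes I, III and IV. In complex I, the NADH dehydrogenase, MT-ND2 had 7 intervals with 3 to 8 reads between 4627 and 5502. Of these, 4 abut from 5467 to 5502 and have 7 reads each, and 1 of those is 2 nt wide (5472 to 5473), the narrowest of the mitochondrial intervals. MT-ND5 had 3 intervals with 10, 10 and 7 reads, among them the widest of all, 59 nt at 13341 to 13399. MT-ND4L had 1 interval of 15 reads (8.40 to 24.7) at 10651 to 10687, and MT-ND4 had 1 of 6 reads (2.20 to 13.1) at 10964 to 11000. MT-ND1, MT-ND3 and MT-ND6 had none. The intervals of complex I mRNAs thus ranged from 3 to 15 reads. The Poisson intervals of the lowest (0.619 to 8.77) and the highest overlap slightly. Overlap of such intervals, here and for the other genes, is not a test of whether the counts differ.

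MT-CYB (ENSG00000198727), which encodes cytochrome b of complex III, held the tallest interval of an mRNA. It had 23 reads (14.6 to 34.5) at 14920 to 14977, with a width of 58 nt and the lowest deposited p of the 48, 2.78e-15. Its other intervals had 4, 9 and 5 reads, so the reads centred on 1 site, although the Poisson interval of its neighbour with 9 reads (4.12 to 17.1) overlaps its own. In complex IV, the cytochrome c oxidase, MT-CO1 had 4 intervals with 7 or 8 reads that form 2 abutting pairs, at 6941 to 6975 and 7142 to 7176, each 35 nt long. MT-CO2 had 1 interval of 8 reads (3.45 to 15.8) at 7677 to 7713, and MT-CO3 had none. No interval was listed for the ATP synthase genes MT-ATP6 and MT-ATP8.

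**Figure D2:**
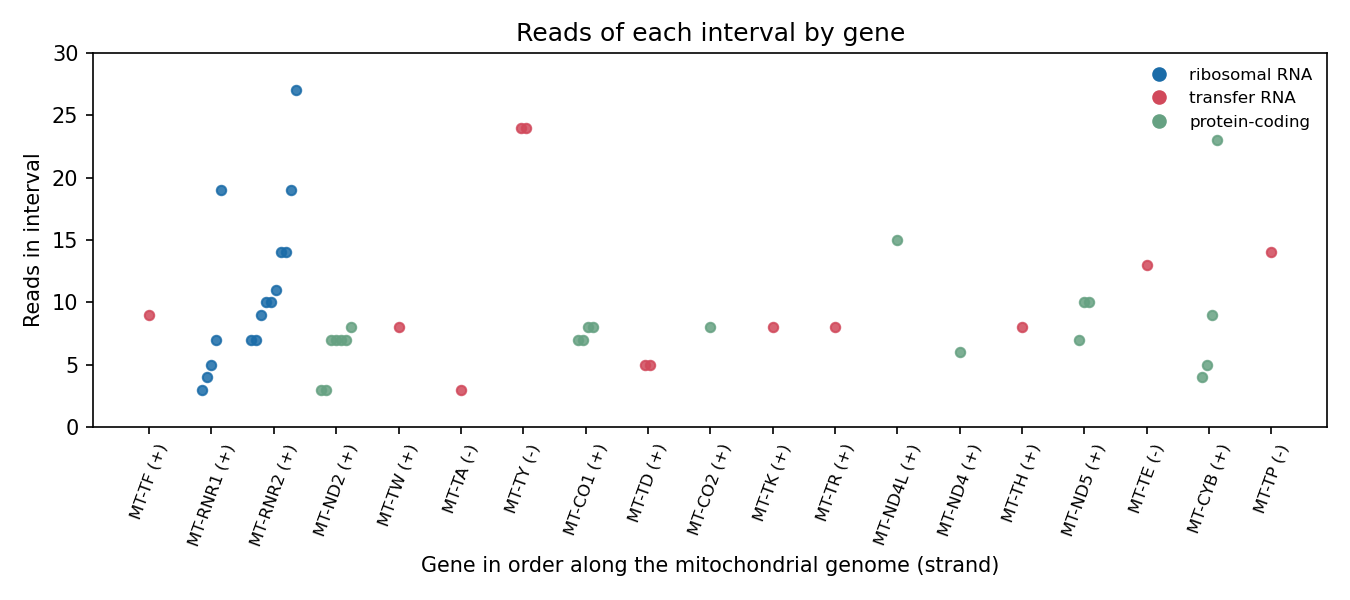
Reads of each interval (y axis; 1 point per interval, points of a gene spread sideways) for the 19 mitochondrial genes with intervals, in gene order (x axis, strand in brackets). MT-RNR2 has the most points (10) and the highest (27 reads). MT-TY, at 24 reads, is the highest tRNA gene and MT-CYB, at 23, the highest protein-coding gene.

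Genes without an interval lay next to each other in places. The longest stretch with no interval ran over 2083 nt from 8339 to 10421, between MT-TK and MT-TR, and contains MT-ATP8, MT-ATP6, MT-CO3, MT-TG and MT-ND3. The next was 1439 nt long, from 3188 to 4626, and contains MT-TL1, MT-ND1, MT-TI, MT-TQ and MT-TM. In a further 3 places more than 1000 nt had none: between MT-ND4 and MT-TH (1169 nt), between MT-TY and MT-CO1 (1081 nt), and between MT-ND5 and MT-TE (1025 nt). Between the first interval and the last the 48 intervals covered 1236 nt, 8.04% of that span. On the nuclear chromosomes the corresponding coverage was 0.00190% to 0.0128%. Their spans include introns and all sequence between genes, transcribed or not. The percentages thus have unlike denominators and do not compare crosslinking per RNA. The list holds called intervals only, so a stretch with none may still have reads.

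Listed mitochondrial intervals had a higher median of reads than listed nuclear ones, but a like share with at least 20 reads. The median was 8 reads (95% order-statistic interval 7 to 9, counting the intervals as independent), with quartiles of 7 and 10.2. For the 7603 nuclear intervals the median was 5 and the quartiles 3 and 7. The list holds intervals with a deposited p of up to 0.0499. Nuclear intervals with 3 reads had a median p of 0.0191, whereas MT-TW and MT-TH, with 8 reads each, had 0.0454 and 0.0429. In genes scored like these 2, mitochondrial intervals of few reads may thus be missing from the list, although 4 mitochondrial intervals with 3 reads were listed. Protein-coding mitochondrial intervals with 8 reads had lower p, from 2.31e-06 to 2.02e-04, and the median of that class was 7 reads. How far missing intervals set the medians was not tested. At least 10 reads were present in 16 mitochondrial intervals (33.3%) and 1338 nuclear ones (17.6%), and at least 20 reads in 4 (8.33%) and 636 (8.37%). None of the 48 reached 100 reads, as 236 nuclear intervals did (3.10%). At so small a share few would be counted among 48 intervals, so this absence is not read as a difference. On each of the 24 nuclear chromosomes the median was 4 to 5 reads, so that none of them reached the mitochondrial one. In all, the mitochondrial intervals held 0.307% (95% Clopper-Pearson interval 0.280 to 0.336) of the reads summed over the list. That interval counts the reads as independent, although neighbouring intervals can share them, so it does not give the full error. The percentage is of reads in listed intervals, not of all reads in the libraries.

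**Figure D3:**
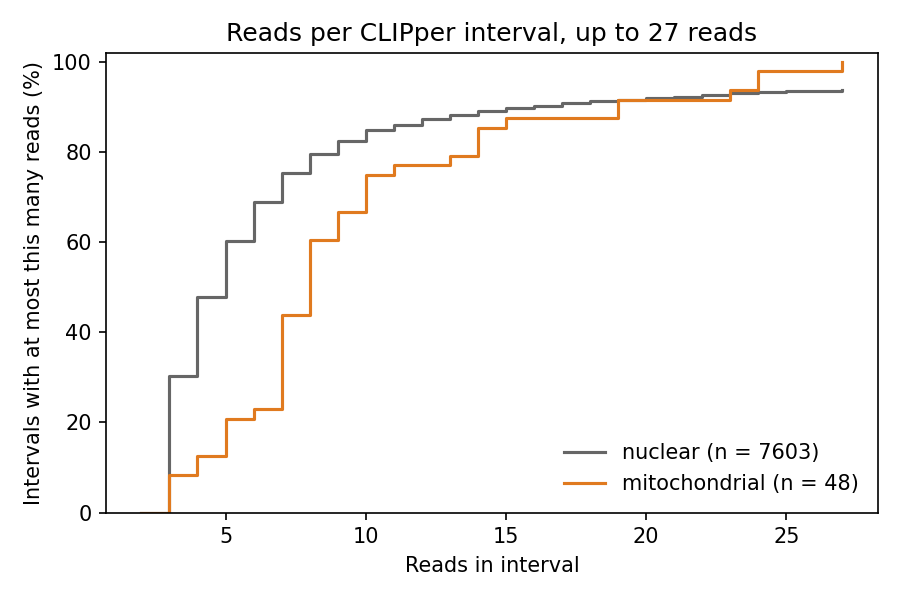
Percentage of intervals with at most the given number of reads (y axis) against reads per interval up to 27 (x axis), for 48 mitochondrial and 7603 nuclear intervals. The mitochondrial curve lies to the right at low reads (median 8 against 5) and ends at 27, where some nuclear intervals still lie beyond the axis.

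Mitochondrial intervals were also less even in width between their quartiles, though not in range. Their median was 27 nt (quartiles 14.5 and 35.2, range 2 to 59), against 33 nt (27 and 36, range 1 to 103) for nuclear intervals. Of the 48, 10 (20.8%) were at most 10 nt wide, against 12.3% of nuclear ones. Part of this came from intervals that abut: 16 of 48 touched a neighbour (33.3%, nuclear 26%), in 9 pairs of which 7 had equal reads. Equal reads were also common among nuclear abutting pairs, in 877 of 1026. Merging those that touch left 39 blocks with a median of 34 nt, against 35 nt for 6465 nuclear blocks. The merged blocks in MT-ND2, MT-TY, MT-CO1 and MT-TD were each 34 to 36 nt long, whereas those in MT-RNR2 (75 nt) and MT-CYB (84 nt) were longer. Even so, 53.8% of the mitochondrial blocks were 30 to 40 nt wide, compared with 82.3% of nuclear blocks. Narrow single intervals, such as those of MT-TA and MT-RNR1 (6 nt at 1024 to 1029 and at 1587 to 1592), remained.

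At equal reads, every one of the 48 mitochondrial intervals had a higher deposited p, that is a weaker score, than the median nuclear interval. This held for all 15 intervals of rRNA genes, 12 of tRNA genes and 21 of protein-coding genes. With 8 reads the median nuclear p was 1.17e-06 over 328 intervals. The 4 tRNA intervals with 8 reads had p from 0.00218 to 0.0454, and the protein-coding ones had p from 2.31e-06 (MT-CO1) to 2.02e-04. With 7 reads the rRNA intervals had p from 0.00393 to 0.0237, the protein-coding ones from 1.74e-05 to 2.39e-04, and the nuclear median was 1.06e-05. The gap widened with reads: the MT-RNR2 interval with 27 reads had 7.39e-13, and the nuclear intervals with 27 reads, 12 in number, had a median of 1.64e-30. These p-values are the authors' own, and in CLIPper an interval is scored against the reads of the gene it lies in. Whether the spread of reads along these genes, or their length, set the scores was not tested.

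**Figure D4:**
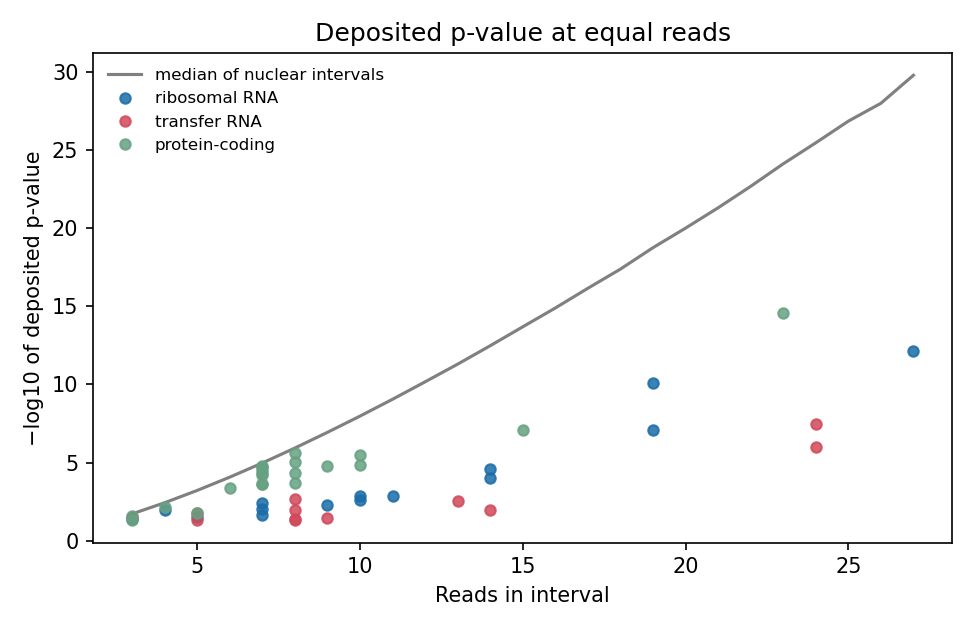
The −log10 of the deposited p-value (y axis) against reads (x axis) for the 48 mitochondrial intervals by gene class, with a grey line for the median of nuclear intervals at the same reads. All points lie below the line. At 8 reads the points of tRNA genes (p from 0.00218 to 0.0454) lie lower than those of protein-coding genes (p from 2.31e-06 to 2.02e-04).

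Of the 42 mitochondrial intervals with 5 to 27 reads, 18 had a deposited p above 0.001 (42.9%), against 3.61% of all CLIPper intervals with such reads. They were 9 of 11 in tRNA genes, 8 of 13 in rRNA genes and 1 of 18 in protein-coding genes. The last was the interval of MT-CYB at 15163 to 15197, with 5 reads and a deposited value of 0.0180. The median p was 0.0138 in tRNA, 0.00241 in rRNA and 4.47e-05 in protein-coding genes, while their median reads were 8, 10 and 7. Taken without regard to reads, 24 of 48 had p under 0.001 (50%, beside 50.8% in the whole list) and 3 had p under 1e-10 (6.25%, 12.4% in the whole list). Those 3 were the top intervals of MT-CYB, MT-RNR2 and MT-RNR1.

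The height list had no peak on the mitochondrial chromosome, although it had peaks on all 24 nuclear chromosomes. None of the 48 intervals therefore overlapped one, against 20.8% of the whole CLIPper list (at least 1 nt on the same strand). Among nuclear intervals within the same range of 3 to 27 reads, 1402 of 7134 did (19.7%, 95% Clopper-Pearson interval 18.7 to 20.6). The percentage depended on reads: it was 7.38 at 3 to 4 reads, 25.8 at 5 to 7, 41.1 at 8 to 10, 44.8 at 11 to 15 and 41.5 at 16 to 27. Weighted to the reads of the mitochondrial intervals it was 33.7, which over 48 intervals would be 16.2 overlaps. The sources used here do not say which genes and chromosomes the height list's annotation covered, so its lack of mitochondrial peaks cannot be told apart from a list that did not cover this chromosome.

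**Figure D5:**
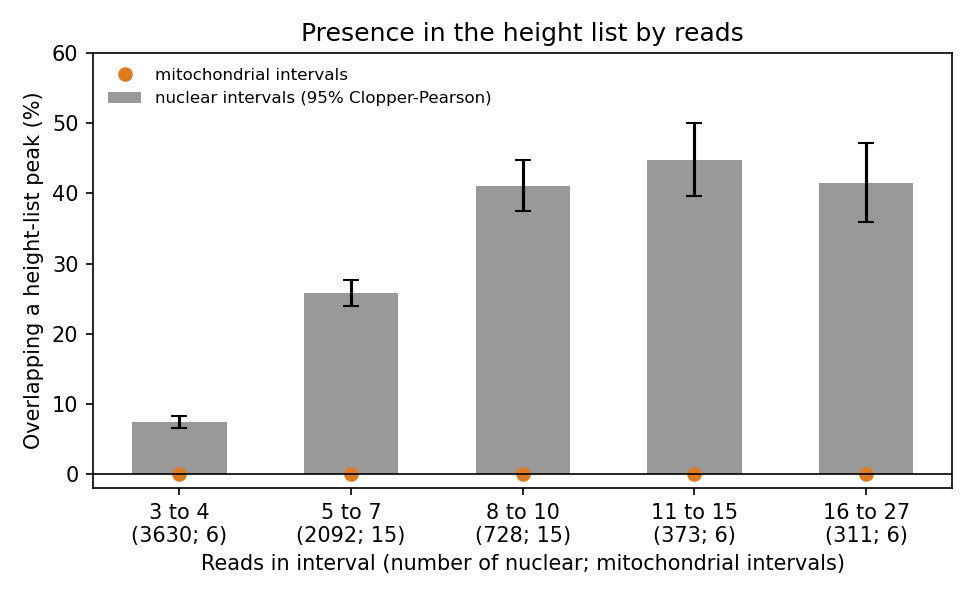
Percentage of intervals that overlap a height-list peak (y axis) by reads per interval (x axis, with the numbers of nuclear and mitochondrial intervals). Grey bars are nuclear intervals with 95% Clopper-Pearson intervals, which rise from 7.38% to 44.8% and then stay near 41.5%. Orange points are mitochondrial intervals, all at 0.

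On chromosome 1, nuclear copies of mitochondrial genes held a small number of low intervals. Such copies are old insertions of mitochondrial DNA into chromosomes, and reads can map to either place. The CLIPper list had 6 intervals under 3 identifiers of mitochondrial pseudogenes on chromosome 1, between 564529 and 567524, all on the plus strand and with 3 or 4 reads. MTND1P23 (ENSG00000225972) had 1, MTND2P28 (ENSG00000225630) had 3 and MTCO1P12 (ENSG00000237973) had 2, and none overlapped the height list, as was so for most nuclear intervals of 3 to 4 reads (7.38% overlapped it). In these, too, neighbouring intervals abut: at MTCO1P12 a stretch from 567491 to 567524 was split into 8 and 26 nt. The 3 identifiers were looked up after the intervals had been seen. Other nuclear copies were not searched for in the CLIPper list, because its Ensembl identifiers were not paired with symbols. Of 487 mitochondrial pseudogenes in the gene table, matched by Entrez identifier, 0 had a height-list peak, and only 0.0878% of all listed pseudogenes had one. How reads that fit both a nuclear copy and the mitochondrial chromosome were placed is not stated in the labels or files.

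Nuclear genes that serve mitochondrial gene expression and respiration were compared through the height list. Of 258 such protein-coding genes 8 had a peak (3.10%), against 6.02% of all 20052 protein-coding genes in the table. The genes of these lists were shorter, with a median of 12195 nt against 24098 nt, and length was not corrected for. The genes of the respiratory complexes, ATP synthase and the mitochondrial ribosome (MRPL, MRPS) were chosen by symbol prefix alone. Such a list can include genes that do not encode a subunit. No peak was listed in 46 genes with the prefix NDUF (complex I), 8 with SDH, 9 with UQCR, 32 with COX or 20 with ATP5. The mitochondrial ribosome had 1 of 49 large-subunit genes, MRPL33 with 4 tags (95% Poisson interval 1.09 to 10.2), and 1 of 28 small-subunit genes, MRPS33 with 6 tags (2.20 to 13.1). Of 37 genes for mitochondrial transcription and RNA processing 4 had a peak. They were MTERF1, a transcription termination factor, and TFAM, which packages mitochondrial DNA and starts its transcription, with 5 tags each, PNPT1, an RNA-degrading enzyme, with 4, and TFB1M, an rRNA methyltransferase, with 3. In translation 2 of 29 had one, the isoleucyl-tRNA synthetase gene IARS2 with 6 tags and the phenylalanyl-tRNA synthetase gene FARS2 with 3. Only 3 of the 8 had a deposited P under 1e-5 (1.16% of the 258 genes, against 2.93% of all protein-coding genes), and the P of MRPL33 (0.0160) and TFB1M (0.0239) were the highest. All 8 genes held a single peak, and their median height of 4.5 tags lay beside 4 for the tallest peaks of all protein-coding genes with a peak.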

How the data were processed

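SNRPA1 irCLIP libraries of 2 replicates were trimmed and aligned with cutadapt 1.10 and BWA 0.7 to hg19, per the submitters' processing notes. The authors deposited a p-value per interval in the CLIPper list (8053 entries), whose names join an Ensembl identifier, a running number and the reads, and, in the height list, a signal that gives each peak's height as a number of tags (1454 entries). Which mitochondrial reference sequence was used, and whether repeated reads were removed before CLIPper, is not stated in the labels or files.

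Entries that repeat an interval were counted once. The members, lists and rules were chosen with earlier results of these data known. The files and the RefSeq gene table (GRCh38.p14, used only for names and lengths) do not pair Ensembl identifiers with symbols. Mitochondrial symbols and classes therefore came from a hand-written list of the standard identifiers, checked by gene order and strand. All genes with an interval were named, with single intervals by reads, width and p. From the nuclear lists up to 10 genes were to be named. Overlap meant at least 1 nt on the same strand. Intervals are exact Poisson, Clopper-Pearson or order-statistic at the 95% level. The code for overlap was tested with peaks placed on known intervals of the CLIPper list. The code for joining and for Clopper-Pearson intervals was tested on simulated data. Calculations ran in Python 3.11.15 with pandas 2.3.3, numpy 2.4.6 and scipy 1.17.1, and matplotlib 3.10.9 drew the plots. No sequences are shown, because no genome of the build was used here.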

Additional observations from a re-analysis of the deposited data

How the results depend on the processing

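Of 29 alternatives, 15 left the value within 1.5 times (counts) or within its counting interval (medians and percentages). The 48 intervals became 24 with p under 0.001, 3 with p under 1e-10 and 16 with at least 10 reads, fewer by construction. The median of 8 reads became 23 with p under 1e-10, 14 with at least 10 reads and 10 when intervals were joined within 50 nt and their reads summed; with the highest reads of each joined region, a setting added after the data were seen, it was 8. The plus-strand percentage of 89.6 became 100 with p under 1e-10 and 75 with at least 10 reads. The rRNA percentage of 31.2 became 66.7 and 50 under the same settings, where 3 and 16 intervals remained. The 19.7% of read-matched nuclear intervals in the height list became 33.7% when weighted to the mitochondrial reads, 32.9% with p under 0.001 and 8.33% with height-list P under 1e-5. That threshold, applied to the nuclear-encoded genes after the data were seen, left 3 of the 8 with a peak, and 2.93% in place of 6.02% of all protein-coding genes. No paired analysis was possible because neither list separates the replicates of the only group, and for the same reason no replicate could be left out. The unknown depth limits all of these numbers.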
